A study of Mus musculus with 15 samples.

Results

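Interferon-γ (IFNγ) and the type I interferons act through cell surface receptors made of paired chains, whose cytoplasmic tails hold Janus kinases (JAK) that phosphorylate signal transducers and activators of transcription (STAT). Here 9 genes of this pathway, chosen by gene symbol, were followed in *Pbrm1* knockout and control tumors, and all 9 were among the 18279 genes measured. They encode the receptor chains *Ifngr1*, *Ifngr2*, *Ifnar1* and *Ifnar2*, the kinases *Jak1*, *Jak2* and *Tyk2*, the signal transducer *Stat2* and the transcription factor *Irf1*. Of the 9 genes, *Ifngr2*, *Ifnar1* and *Ifnar2* were lower in knockout tumors, to 78.7%, 82.4% and 71.4% of the control mean. These 3 genes neighbour each other on chromosome 16, whose genes as a group were lower in knockout tumors. *Ifngr1* and the 3 kinases did not pass the test in either clone, whereas *Stat2* was higher in clone 18.

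IFNγ is bound by IFNGR1, which carries JAK1, and IFNGR2 completes the receptor and brings JAK2. Type I interferons are bound by IFNAR2, which carries JAK1, together with IFNAR1, which carries TYK2. Activated STAT dimers bind gamma-activated sequences (GAS) in IFNγ-induced genes such as *Irf1*, while STAT2 works with IRF9 at interferon-stimulated response elements (ISRE). In tumors this pathway sets antigen presentation and the chemokines that draw T cells.

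The study asked how loss of *Pbrm1*, which encodes a subunit of the SWI/SNF chromatin remodeling complex, changes murine renal cell carcinoma. Bulk RNA sequencing covered 15 tumors grown from Renca cells, a kidney carcinoma line of BALB/c origin. The tumors grew under the skin of female BALB/c mice that were 4 to 6 weeks old when bought. Tumors 1 to 5 were controls, tumors 6 to 10 came from *Pbrm1* knockout clone 4 and tumors 11 to 15 from knockout clone 18. The sample labels describe the controls as parental cells and the study's text as a control knockout line, so they are called control tumors here. The knockout lines were made with plasmids that expressed Cas9 transiently, with a repair template for puromycin resistance and red fluorescent protein, and grown from single sorted cells. Each group was therefore 1 cell line, and a difference between genotypes cannot be told apart from a difference between lines. The sources used here do not say whether these mice had received an antibody. No label links the 5 tumors of a group to separate cultures. The p values for each clone and between clones therefore measure the spread between tumors within a line. Those for all knockout tumors pool both clones, so their spread also holds the difference between the clones. Between 32924414 and 49099168 reads per tumor lay on genes. The deposited normalized count is the number of reads on a gene divided by a size factor of the tumor. The least read of the 9 genes in any tumor still had 1272 reads. *Pbrm1* itself had normalized counts of 7452 to 9871 in control tumors, 2484 to 3068 in clone 4 and 2572 to 3138 in clone 18. Its knockout mean was 31.0% of the control mean, with a log2 difference of -1.69 (limma, SE 0.07, adjusted p = 2.94e-11). The kidney epithelial markers *Pax8*, *Pax2*, *Epcam*, *Cdh16*, *Krt8* and *Krt18* were detected in each group.

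The promoters of the 3 receptor genes that were lower together are shown first, with those of their partner *Ifngr1* and of *Stat2* and *Irf1*, which respond to interferon. Each is the 250 bases before the RefSeq start of the gene on GRCm38.p6, 5′ to 3′ on the strand of the gene (for *Irf1*, 1 of 2 RefSeq windows). Capitals mark GC boxes (GGGCGG or CCGCCC) in *Ifngr2*, *Ifnar1* and *Ifngr1*, a GAS match (TTCNNNGAA) in *Ifnar2* and *Irf1*, and an ISRE core (GAAA, any 2 bases and GAAA again, on either strand) in *Stat2*.
*Ifngr2* promoter, chr16:91546809-91547058, plus strand: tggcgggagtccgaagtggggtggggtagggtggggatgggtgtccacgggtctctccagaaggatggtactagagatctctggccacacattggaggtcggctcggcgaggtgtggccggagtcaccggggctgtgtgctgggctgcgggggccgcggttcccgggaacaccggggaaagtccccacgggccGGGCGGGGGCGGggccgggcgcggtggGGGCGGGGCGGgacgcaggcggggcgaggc
*Ifnar1* promoter, chr16:91484965-91485214, plus strand: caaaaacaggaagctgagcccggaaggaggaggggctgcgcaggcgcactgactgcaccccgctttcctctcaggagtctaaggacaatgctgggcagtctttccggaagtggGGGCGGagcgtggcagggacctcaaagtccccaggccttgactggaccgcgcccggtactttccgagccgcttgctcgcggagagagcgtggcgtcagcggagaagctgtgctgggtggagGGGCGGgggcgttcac
*Ifnar2* promoter, chr16:91372533-91372782, plus strand: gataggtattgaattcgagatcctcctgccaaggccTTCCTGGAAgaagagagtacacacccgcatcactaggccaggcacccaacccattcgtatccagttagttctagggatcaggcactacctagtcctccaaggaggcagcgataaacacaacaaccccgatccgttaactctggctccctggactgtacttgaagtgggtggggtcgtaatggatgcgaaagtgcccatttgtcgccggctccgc
*Ifngr1* promoter, chr10:19591699-19591948, plus strand: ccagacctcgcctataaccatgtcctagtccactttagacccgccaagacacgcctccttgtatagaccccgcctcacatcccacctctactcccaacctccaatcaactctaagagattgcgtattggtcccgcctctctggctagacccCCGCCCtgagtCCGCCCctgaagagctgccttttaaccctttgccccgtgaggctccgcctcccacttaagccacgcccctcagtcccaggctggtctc
*Stat2* promoter, chr10:128270248-128270497, plus strand: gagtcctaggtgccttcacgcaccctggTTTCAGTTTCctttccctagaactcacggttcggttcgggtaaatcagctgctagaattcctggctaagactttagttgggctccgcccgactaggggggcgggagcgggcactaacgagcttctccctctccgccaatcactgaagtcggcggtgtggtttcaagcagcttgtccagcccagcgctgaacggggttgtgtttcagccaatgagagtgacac
*Irf1* promoter, chr11:53769764-53770013, plus strand: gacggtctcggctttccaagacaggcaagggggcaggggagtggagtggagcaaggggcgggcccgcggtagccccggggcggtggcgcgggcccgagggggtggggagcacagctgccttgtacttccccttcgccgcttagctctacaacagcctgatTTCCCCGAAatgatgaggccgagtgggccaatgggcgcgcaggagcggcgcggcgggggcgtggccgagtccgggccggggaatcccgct
The *Ifngr2* window held 4 GC boxes within its last 57 bases, the last pair overlapping by 1 base, and 74% of its bases were G or C. At least 1 GC box was present in 32.7% of the 32851 RefSeq promoter windows of this length searched on both strands, and 4 or more in 4.09%. The *Ifnar1* window held 2 GC boxes, as did that of *Ifngr1*, and the *Ifnar2* window held 0. A GAS match was present in 7.02% of all windows. Among the 9 genes it stood 214 bases before the start of *Ifnar2* and 90 bases before that of *Irf1*. An ISRE core match, present in 2.98% of all windows, stood 222 bases before the start of *Stat2*. None of these 3 motifs was shared by all 3 receptor genes that were lower. A match to these letters is a description and not a binding site.

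For the IFNγ receptor, *Ifngr2* (ENSMUSG00000022965) lies on chromosome 16 from 91547072 to 91565623 of GRCm38. Its normalized counts were 3892, 3522, 3822, 3981 and 3568 in control tumors 1 to 5. In clone 4 tumors 6 to 10 they were 3024, 3071, 3311, 2778 and 3522, and in clone 18 tumors 11 to 15 they were 3008, 2799, 2754, 2412 and 2880. Of the knockout tumors, 9 of 10 were below each control tumor. The exception was clone 4 tumor 10, level with the lowest control. The mean ± SD fell from 3757.1 ± 202 in the 5 control tumors to 3141 ± 285 in the 5 tumors of clone 4 and to 2771 ± 223 in those of clone 18. The log2 difference of all knockout tumors from controls was -0.35 (limma, SE 0.07, adjusted p = 0.00195). It was -0.26 (adjusted p = 0.0183) for clone 4 and -0.44 (adjusted p = 0.000297) for clone 18. Without clone 4 tumor 9, the clone 4 difference was -0.22 with an adjusted p of 0.0516.

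The ligand-binding chain *Ifngr1* (ENSMUSG00000020009), on chromosome 10 from 19591949 to 19610229, did not follow its partner. Its counts were 9345, 8913, 9180, 10402 and 9586 in control tumors, 8770, 10725, 10386, 9957 and 8829 in clone 4, and 11801, 10371, 8617, 11549 and 11930 in clone 18. The groups overlapped, and clone 18 held both the lowest and the highest tumor. The knockout difference was 0.11 on the log2 scale (limma, 95% interval -0.06 to 0.28, adjusted p = 0.371). For clone 18 alone it was 0.19 (95% interval, not adjusted, 0.0012 to 0.37, adjusted p = 0.135), and it passed the threshold without tumor 13 (0.27, adjusted p = 0.0156) or under quantile normalization (0.24, adjusted p = 0.0400).

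**Figure D1:**
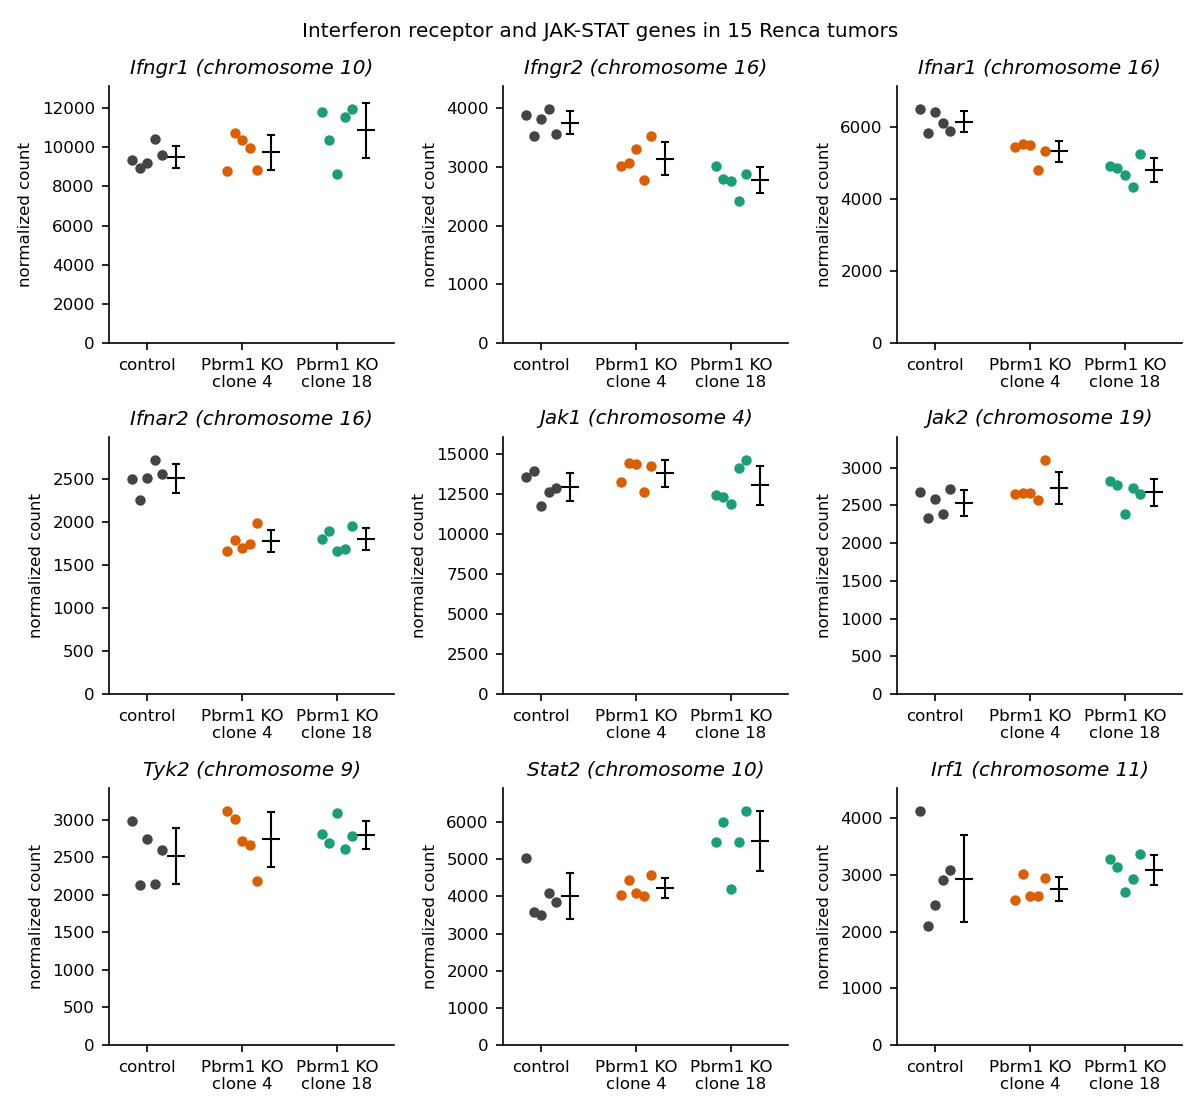
Normalized counts of the 9 genes in each tumor, from 0, with control tumors in grey, clone 4 in orange and clone 18 in green, and the mean ± SD of each group (n = 5) beside its points. All knockout tumors lie below all control tumors for *Ifnar1* and *Ifnar2* and 9 of 10 for *Ifngr2*, while the groups overlap for the other genes.

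The same contrast was measured within each tumor as the ratio of *Ifngr2* to *Ifngr1*, in which the size factor of the tumor cancels apart from the added count of 1. *Ifngr2* stood at 41.7%, 39.5%, 41.6%, 38.3% and 37.2% of *Ifngr1* in control tumors. It stood at 34.5%, 28.6%, 31.9%, 27.9% and 39.9% in clone 4, and at 25.5%, 27.0%, 32.0%, 20.9% and 24.2% in clone 18. The ratio was below each control in 9 of 10 knockout tumors, and clone 4 tumor 10 again lay within the control range. The log2 ratio averaged -1.34 ± 0.07 (SD) over the 5 controls and -1.80 ± 0.27 (SD) over the 10 knockout tumors. The difference was -0.46 (two-sided exact permutation test over 3003 splits, p = 0.00433, adjusted over 2 such tests p = 0.00533). It kept its sign and its side of the threshold in each of the 19 alternatives tried, between -0.30 in clone 4 alone and -0.63 in clone 18 alone.

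For the type I interferon receptor, both chains were lower. *Ifnar2* (ENSMUSG00000022971), on chromosome 16 from 91372783 to 91405589, had counts of 2503, 2249, 2509, 2715 and 2551 in control tumors. In clone 4 they were 1664, 1789, 1701, 1748 and 1987, and in clone 18 1802, 1900, 1665, 1688 and 1954. All 10 knockout tumors were below all 5 controls, and both clones covered nearly the same range. The log2 difference was -0.49 (limma, SE 0.06, adjusted p = 1.67e-05), the largest of the 9 genes in size. It was -0.50 in clone 4 (adjusted p = 7.89e-05) and -0.48 in clone 18 (adjusted p = 9.71e-05). The clones differed by 0.02 (95% interval -0.12 to 0.16, adjusted p = 0.920). *Ifnar2* is overlapped on the same strand by the annotated gene *Gm21970*, and how reads on both were assigned is not stated.

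*Ifnar1* (ENSMUSG00000022967), from 91485238 to 91507441 of the same chromosome, had counts of 6500, 5854, 6424, 6109 and 5896 in control tumors. They were 5461, 5538, 5508, 4803 and 5338 in clone 4, and 4936, 4878, 4668, 4347 and 5250 in clone 18. Again no knockout tumor reached the control range. The log2 difference was -0.28 (limma, SE 0.06, adjusted p = 0.00270), with -0.21 in clone 4 (adjusted p = 0.0243) and -0.36 in clone 18 (adjusted p = 0.000429). The clone 4 call was lost without control tumor 1, control tumor 3 or clone 4 tumor 9, with the highest adjusted p (0.0666) without tumor 9.

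Over all 18250 genes tested, 22.1% were called between knockout and control tumors, 12.9% lower and 9.23% higher. Against this background 3 of the 9 genes were called, all 3 lower. Under quantile normalization the split over all genes turned from 1684 higher and 2356 lower to 2265 higher and 1971 lower, and the same 3 members were called lower. All knockout tumors were below all controls in 4.87% of genes, as in *Ifnar1* and *Ifnar2*. All 5 clone 4 tumors were below all controls in these same 2 members (8.2% of all genes) and all 5 clone 18 tumors in these and *Ifngr2* (9.82% of all genes). In clone 4 the same 3 genes were lower (16.8% of all genes called, 10% lower), and in clone 18 the same 3 were lower and *Stat2* was higher (24.7% called, 14.2% lower and 10.4% higher). Both clones share the control tumors. The median log2 difference of the 9 genes was 0.05, beside -0.02 over all genes.

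**Figure D2:**
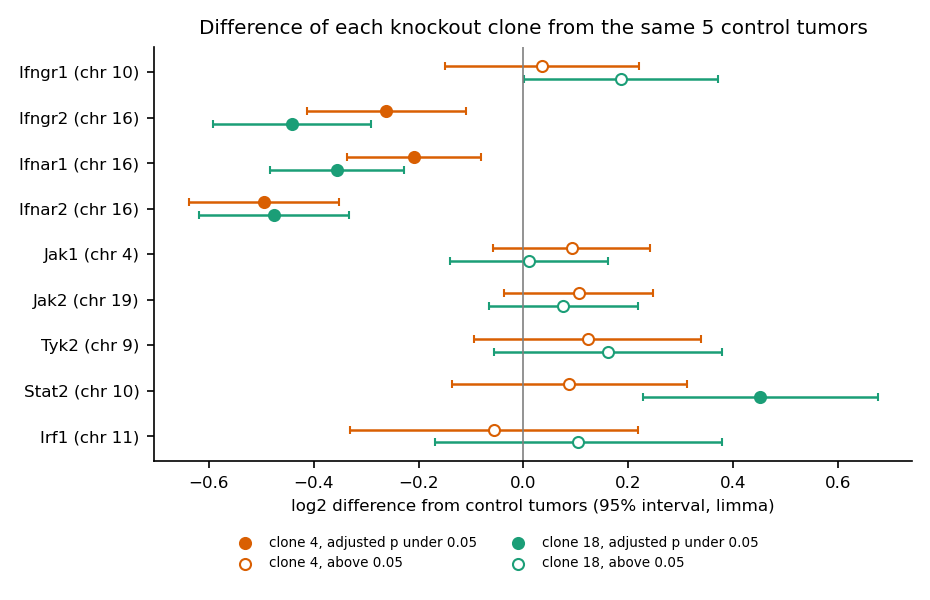
Log2 differences of clone 4 (orange) and clone 18 (green) from the 5 control tumors with 95% intervals from limma, filled where the adjusted p was under 0.05. The intervals of *Ifngr2*, *Ifnar1* and *Ifnar2* lie below 0 in both clones, and those of *Stat2* and, narrowly, *Ifngr1* lie above 0 in clone 18.

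The 3 kinases did not pass the test. *Jak1* (ENSMUSG00000028530, chromosome 4 from 101152367 to 101265282), which serves both receptors, ranged from 11715 to 13932 in control tumors, from 12591 to 14409 in clone 4 and from 11848 to 14586 in clone 18. Its knockout difference was 0.05 (limma, 95% interval -0.08 to 0.18, adjusted p = 0.622). *Jak1*, *Tyk2* and *Irf1* each overlap a gene on the other strand, *Raver2*, *1700084C06Rik* and *Gm17334*, and the strand setting of the counting is not given in the sources used here. *Jak2* (ENSMUSG00000024789, chromosome 19 from 29251828 to 29313080), the kinase brought by IFNGR2, had counts of 2672, 2330, 2578, 2379 and 2711 in control tumors. In clone 4 they were 2653, 2659, 2661, 2567 and 3095, and in clone 18 2825, 2770, 2380, 2724 and 2652. The groups overlapped, with a difference of 0.09 (95% interval -0.03 to 0.21, adjusted p = 0.297). *Tyk2* (ENSMUSG00000032175, chromosome 9 from 21104068 to 21131243), the kinase of IFNAR1, ranged from 2132 to 2980 in control, 2186 to 3114 in clone 4 and 2607 to 3097 in clone 18 tumors. Its difference was 0.14 (95% interval -0.04 to 0.33, adjusted p = 0.279). The intervals allow changes of either sign in all 3 kinases.

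*Stat2* (ENSMUSG00000040033, chromosome 10 from 128270559 to 128292849), the type I interferon signal transducer, passed the test in clone 18 and not in clone 4. Its counts were 5025, 3568, 3496, 4100 and 3861 in control tumors, 4042, 4445, 4081, 3999 and 4583 in clone 4, and 5468, 6010, 4202, 5463 and 6290 in clone 18. Of the clone 18 tumors, 4 of 5 were above each control and each clone 4 tumor, with tumor 13 the exception. The log2 difference from control was 0.45 in clone 18 (limma, SE 0.11, adjusted p = 0.00494) and 0.09 in clone 4 (adjusted p = 0.645). Over both clones it was 0.27 (adjusted p = 0.112), and 0.35 without control tumor 1 (adjusted p = 0.0476).

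The clones were also compared directly, where 4.62% of all genes were called and limma called 0 of the 9. At an unadjusted p under 0.05 there were 3 (*Stat2*, *Ifngr2* and *Ifnar1*), and edgeR and DESeq2 each called 1, *Stat2*. The *Stat2* difference between the clones was 0.36 (limma, 95% interval 0.14 to 0.59, adjusted p = 0.0597). For *Ifngr2* it was -0.18 (adjusted p = 0.179) and for *Ifnar1* -0.15 (adjusted p = 0.196).

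*Irf1* (ENSMUSG00000018899, chromosome 11 from 53770014 to 53778374), an early IFNγ-induced transcription factor, varied more among control tumors than between groups. Its counts were 4121, 2095, 2468, 2914 and 3079 in control tumors, 2556, 3019, 2635, 2622 and 2946 in clone 4, and 3285, 3136, 2706, 2927 and 3369 in clone 18. Control tumors held both the highest and the lowest value, so that each knockout tumor lay inside the control range. The coefficient of variation was 26.1% in control, 7.65% in clone 4 and 8.76% in clone 18 tumors. The knockout difference was 0.02 (limma, 95% interval -0.22 to 0.27, adjusted p = 0.915), and its sign turned without control tumor 2 or 3.

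Per kilobase of exon, on the scale of normalized counts, *Ifngr1* was the most abundant of the 9 in control tumors, at 3332 ± 199 (SD, n = 5), followed by *Jak1* at 1788 ± 119. *Ifnar1* (1036 ± 49.9) and *Ifngr2* (997 ± 53.7) did not differ beyond their spread, nor did *Ifnar2* (753 ± 50.2), *Irf1* (738 ± 193) and *Stat2* (677 ± 104). *Jak2* (504 ± 34.1) and *Tyk2* (367 ± 54.3) were lowest. In clone 18 *Stat2* stood at 926 ± 135, within its spread of *Ifnar1* (811 ± 56.4) and above *Ifngr2* (736 ± 59.1). In clone 4 *Ifnar2* stood at 534 ± 38.0, level with *Jak2* (542 ± 41.6).

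The 3 genes that were lower are the only members on chromosome 16, where they follow one another on the plus strand in the order *Ifnar2*, *Ifnar1*, *Ifngr2*. *Il10rb*, which encodes a chain of the receptors for interleukin-10 and interferon-λ, lies between *Ifnar2* and *Ifnar1*. It was not called, with 1626 ± 134 in control, 1460 ± 25.3 in clone 4 and 1564 ± 148 in clone 18 tumors (SD, n = 5) and a log2 difference of -0.10 (limma, adjusted p = 0.282). The next genes before it, *H3f3a-ps2* (-0.18, adjusted p = 0.598) and *4932438H23Rik* (-2.26, adjusted p = 0.00990), were low, with means of 36.5 and 10.7. After *Ifngr2*, *Tmem50b* was lower (-0.45, adjusted p = 0.000598). *Dnajc28* (-0.53, adjusted p = 0.264) and *Gart* (-0.05, adjusted p = 0.759) were not called. Neighbouring genes held both called and uncalled values. Of the 20 genes flanking *Ifngr2*, 6 were called lower and 3 higher, with a median of -0.17. Over all genes 12.9% were called lower and 9.23% higher.

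Chromosome 16 as a whole was lower. Its 485 genes that averaged 10 or more normalized counts had a median log2 difference of -0.20 between knockout and control tumors, -0.14 for clone 4 and -0.27 for clone 18. On the other chromosomes of the table the median ranged from -0.11 to 0.06. On chromosome 16, 35.5% of these genes were called lower and 2.68% higher, while on the others 9.26% to 24.1% were called lower. Along its length 5 segments had medians from -0.27 to -0.16, so the lower level was not limited to the receptor genes. The flanks of the other 6 members had medians from -0.02 (*Irf1*) to 0.11 (*Jak1*).

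**Figure D3:**
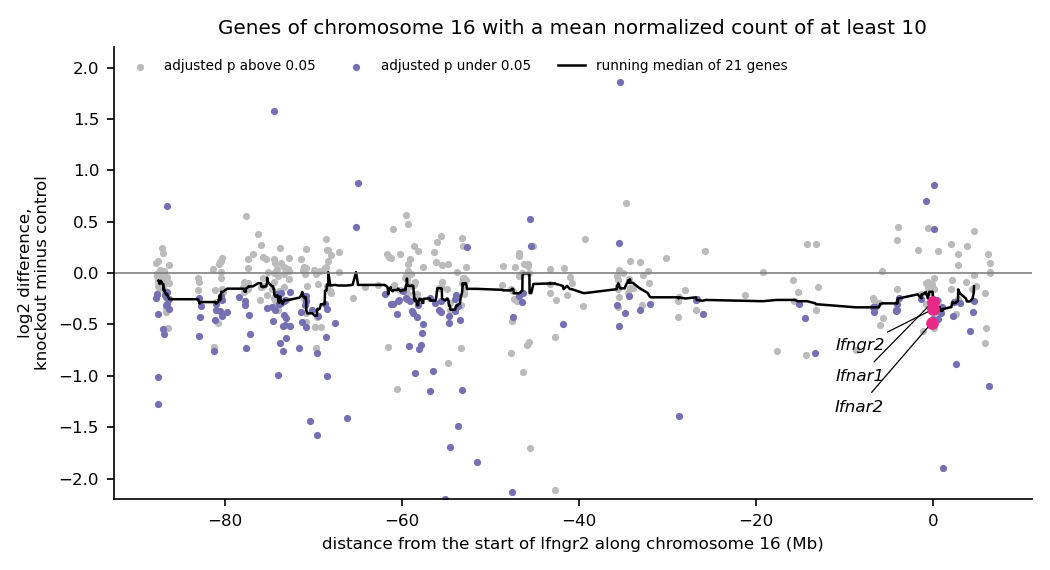
Log2 difference between knockout and control tumors of 485 genes along chromosome 16, by distance from the start of *Ifngr2* in Mb, purple where the adjusted p was under 0.05, with the running median of 21 genes as a line (12 genes lie outside the axis). The line stays below 0 over nearly the whole chromosome, and the receptor genes (pink) lie below it.

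Relative to the median of its 20 flanking genes in the same tumor, *Ifngr2* stood at a log2 value of 1.40 ± 0.11 in control, 1.22 ± 0.09 in clone 4 and 1.01 ± 0.19 in clone 18 tumors (mean ± SD of 5 tumors). The knockout difference was -0.28 (two-sided exact permutation test, p = 0.00533, adjusted over 2 tests p = 0.00533), with 9 of 10 knockout tumors below each control. The 20 flanking genes were taken at their own levels, with means from 10.7 to 14854, so their median followed genes of middle level. Such genes were *Paxbp1* (mean 1359) and *Urb1* (mean 1526), both with a log2 difference of -0.09. The median log2 difference of the 20 was -0.17. The size of the *Ifngr2* difference depended on the reference genes. In the same exact permutation test with 20 genes on each side it was -0.035 (p = 0.597), with the mean of the flanking genes -0.065 (p = 0.390), and against all other genes of the chromosome -0.071 (p = 0.138, chosen after seeing the data), none past the threshold. With each reference gene centred on its own mean, also chosen after seeing the data, the permutation test gave -0.21 (p = 0.0236) for 10 genes on each side, -0.15 (p = 0.0150) for 20 and -0.15 (p = 0.00633) for the chromosome. The p values of these alternatives were not adjusted. With no test, the same measure was -0.42 for *Ifnar2*, below each control in 10 of 10 knockout tumors, and -0.21 for *Ifnar1*, below in 8 of 10. The genes flanking *Ifnar2* and those flanking *Ifnar1*, again at their own levels, had a median log2 difference of -0.17. The genes' own differences were -0.49 and -0.28. Other reference genes were tried for *Ifngr2* only, so how far these 2 values depend on the reference was not tested. Relative to their own flanking genes, the knockout difference was 0.27 for *Tyk2*, above each control in 9 of 10 knockout tumors, and 0.27 for *Stat2*, above in 4 of 10. *Tyk2* itself was not called (0.14), and its flanking genes, also taken at their own levels, had a median log2 difference of 0.04. For the other 4 members it lay between -0.07 (*Jak1*) and 0.09 (*Ifngr1*).

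**Figure D4:**
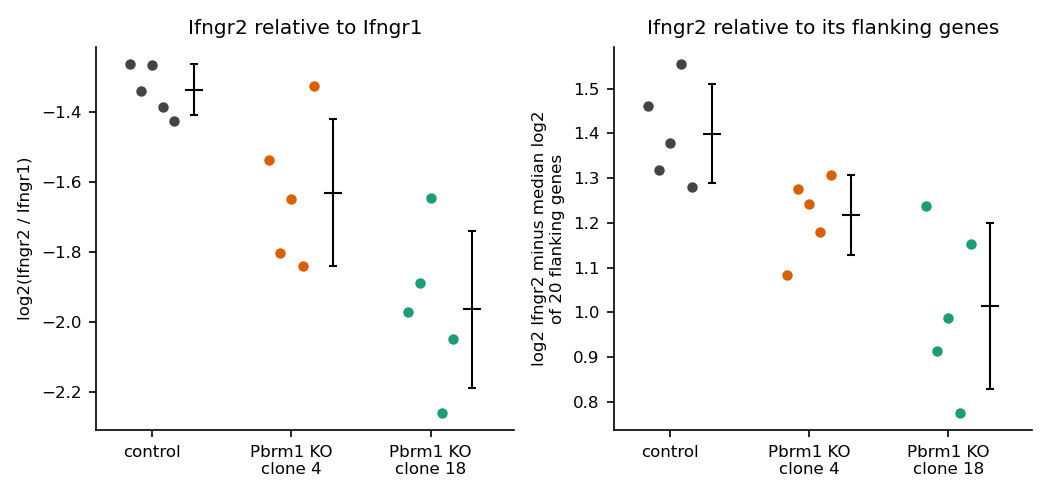
Left, log2 ratio of *Ifngr2* to *Ifngr1* in each tumor, and right, log2 *Ifngr2* minus the median log2 of its 20 flanking genes, by group with the mean ± SD (n = 5). In both panels 9 of 10 knockout tumors lie below all control tumors.

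Other genes of the pathway were read from lists by role. Of 52 listed genes 42 were analysed and the 10 ligand genes were not analysed here. Of the 42, 3 were higher and 7 lower in knockout tumors, near the share called over all genes (22.1%), with a median log2 difference of -0.03. Among 5 related receptors limma called 0 (1 at an unadjusted p under 0.05, and 1 each by edgeR and DESeq2), and among 6 other JAK and STAT genes 0 (0 unadjusted, and 0 by edgeR and DESeq2). Of 8 other interferon regulatory factors *Irf8*, a factor of myeloid and B cells, was lower (-0.41, adjusted p = 0.00673). *Irf9*, the partner of STAT2, had 2089 ± 239 in control, 2206 ± 171 in clone 4 and 2154 ± 314 in clone 18 tumors (SD, n = 5), a difference of 0.06 (adjusted p = 0.687).

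The inhibitors moved in both directions, 3 of 19 higher and 5 lower, beside 9.23% of all genes called higher and 12.9% lower. *Socs4* (0.26, adjusted p = 0.00354), *Socs5* (0.26, adjusted p = 0.0352) and *Pias4* (0.18, adjusted p = 0.0484) were higher. *Ptpn6*, a phosphatase abundant in blood cells, was lower (-0.59, adjusted p = 0.00106), as were *Pias2* (-0.35, adjusted p = 0.000338) and *Socs7* (-0.34, adjusted p = 0.00105). *Sh2b3*, an adaptor that restrains JAK2 in blood cells, was also lower (-0.32, adjusted p = 0.0122), as was *Pias1* (-0.22, adjusted p = 0.0128). The inhibitor *Socs1*, which lies on chromosome 16, had 53.5 ± 15.7 in control, 42.1 ± 16.2 in clone 4 and 36.0 ± 13.5 in clone 18 tumors and was not called (-0.49, adjusted p = 0.235). Of 4 cofactors *Kpna1*, an importin that carries STAT proteins into the nucleus and also a gene of chromosome 16, was lower (-0.38, adjusted p = 0.000251).

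Of 20 IFNγ-induced genes 8 were lower and 0 higher, with a median of -0.34, beside 12.9% of all genes called lower. The T cell-attracting chemokines *Cxcl9* (-2.03, adjusted p = 0.00733) and *Cxcl10* (-1.31, adjusted p = 0.00183) were among them. The tryptophan-degrading enzyme *Ido1* (-1.98, adjusted p = 0.0254) had few reads, with means of 13.5 in control, 1.44 in clone 4 and 1.76 in clone 18 tumors, so its size depends on the added count. The GTPases *Iigp1* (-1.17, adjusted p = 0.0162) and *Igtp* (-0.55, adjusted p = 0.0433), the immunoproteasome genes *Psmb10* (-0.54, adjusted p = 0.000682) and *Psmb9* (-0.52, adjusted p = 0.0178) and the peptide-loading gene *Tapbp* (-0.26, adjusted p = 0.0497) were lower as well. Control tumor 1, with the highest *Irf1*, also had the highest sum over these 20 genes, 107192 against 67432 to 84086 in the other controls and 58152 to 79839 in knockout tumors. Without it, 3 were lower (*Cxcl9*, *Cxcl10* and *Psmb10*) and 1, *Tap2*, was higher.

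Of 21 type I interferon-induced genes 3 were lower and 1 higher, with a median of -0.09, beside 22.1% of all genes called. *Ifit3* (-1.28, adjusted p = 3.91e-05), *Ifi44* (-0.88, adjusted p = 0.00961) and *Ifit2* (-0.21, adjusted p = 0.0354) were lower, and *Dhx58*, a cytoplasmic RNA sensor, was higher (0.47, adjusted p = 0.0180). Without control tumor 2, 2 were called, *Ifit3* and *Ifi44*.

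**Figure D5:**
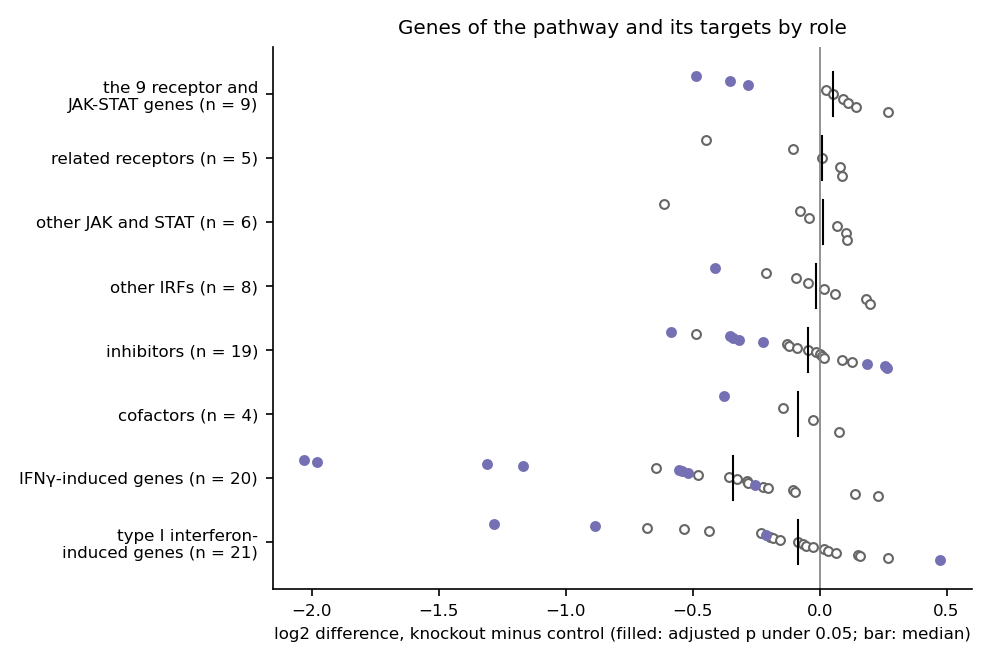
Log2 difference between knockout and control tumors of each gene by role, filled where the adjusted p was under 0.05, with the median of each list as a bar. The 3 receptor genes form the lower group among the 9 members, and the IFNγ-induced genes have the lowest median of the lists plotted, -0.34.

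Cell type markers also differed between groups, beside 12.9% of all genes called lower and 9.23% higher in knockout tumors. In bulk tumors, fewer cells of a type and less RNA per cell cannot be told apart. Of 8 macrophage markers 5 were lower in knockout tumors (*Csf1r*, *Mrc1*, *C1qa*, *C1qb* and *C1qc*). *Cd68* went the other way in clone 18, where it was higher than in controls (0.38, adjusted p = 0.0180) and than in clone 4 (0.52, adjusted p = 0.00998). The summed counts of the 8 macrophage markers were 79488 to 105429 in control, 62735 to 78455 in clone 4 and 56782 to 76088 in clone 18 tumors. All knockout tumors were thus below all controls, by a narrow gap, as in 4.87% of single genes. Of 8 T cell markers 4 were lower (*Cd3d*, *Cd3g*, *Cd6* and *Cd8a*), with sums of 439 to 1389, 455 to 717 and 452 to 589 in the same order, which overlapped. These sums hold much of *Lck*, which was not called (-0.06, adjusted p = 0.782), with means of 493 in control, 502 in clone 4 and 441 in clone 18 tumors. The median log2 difference of the 8 was -1.74. Beside *Lck* the other T cell markers made up little of the sums in knockout tumors, so the size of this median depends on the added count. Of 3 B cell markers 2 were lower (*Cd79b* and *Ighm*), with sums of 402 to 2297, 452 to 877 and 183 to 449. Of 5 neutrophil markers 1 was lower (*Csf3r*), with sums of 761 to 1777, 496 to 1983 and 555 to 758. In all knockout tumors limma called 0 of 4 NK cell, 0 of 6 endothelial and 0 of 5 fibroblast markers. At an unadjusted p under 0.05 it also called 0 of each. EdgeR also called 0 of each, and DESeq2 called 1 NK cell marker. In clone 18 alone limma called 1 NK cell marker lower (2 unadjusted), beside 14.2% of all genes. In clone 4 alone it called 0 (1 unadjusted). The NK cell sums were 57.3 to 377, 69.7 to 214 and 20.9 to 88.6. The endothelial sums were 4935 to 11323, 6416 to 11965 and 6872 to 8885, and the fibroblast sums 27276 to 45208, 10001 to 107410 and 36226 to 63477. Among the kidney epithelial markers named above, *Epcam* was higher (1.23, limma adjusted p = 0.00286) and *Krt18* lower (-0.32, adjusted p = 0.0197). No marker was at 0 in all tumors of a group. The part of these cells in the differences of the 9 genes and of the induced genes was not tested.

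Over all 15 tumors, taken relative to their group means, those high for *Irf1* were high for the IFNγ-induced GTPase genes. Control tumors weigh most in this. The SD of *Irf1* was 767 in control, 211 in clone 4 and 270 in clone 18 tumors, and that of *Igtp* 982, 225 and 206. The genes most like *Irf1* over the 15 tumors after subtraction of each group mean were *Irgm1* (Pearson r = 0.96), *Igtp* (0.94) and *Irgm2* (0.93), which all lie on chromosome 11, as *Irf1* does. Among the 9 members the closest pair was *Stat2* and *Irf1* (0.81), followed by *Ifngr2* and *Ifnar1* (0.73). *Ifngr2* and *Ifngr1* stood at 0.02. The genes most like *Ifngr2* were *Necap1* (0.88), *Hectd2* (0.87) and *Arf4* (0.86), and those most like *Jak2* were *Kctd12b* (0.90), *Pogk* (0.89) and *Tlr13* (0.88). These values describe 15 tumors whose group means were subtracted and whose depth differed, and were picked as the highest among all genes of sufficient level.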

How the data were processed

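RNA of 15 tumors was sequenced, 5 per group. The deposited table holds a signal, the normalized count, for which the authors used TopHat2 (mm10) for alignment, HTSeq for gene counts and DESeq for size factors, rounded to 0.1. Tool versions, annotation and strand setting are not given in the sources used here. Whole reads were recovered from the step between values of a tumor, 0.881 to 1.309, since 99.98% or more of values up to 8000 were multiples of it within 0.05. The 32924414 to 49099168 reads on genes, counted without molecular identifiers, set the counting error, which is not the whole of the spread between tumors.

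The 29 genes without a read in any of the 15 tumors were dropped from the 18279. On log2(normalized count + 1), limma 3.58.1 with trend compared 10 knockout with 5 control tumors, and a second fit compared the 3 groups. P values were two-sided and adjusted by Benjamini-Hochberg over 18250 genes, with a threshold of 0.05. Fold changes on this scale understate those of low genes. Single values were compared by exact permutation over all 3003 splits. Flanking genes were the nearest 10 on each side with a mean of at least 10. Members were taken by symbol, and the named genes were the members, called genes of the pathway and target lists (at most 8 per role), *Socs1*, *Irf9*, *Il10rb*, the nearest 3 genes on each side of *Ifngr2* and, for *Ifngr2*, *Jak2* and *Irf1*, the 3 genes most like each. Those most like *Stat2*, and some listed markers, are not reported here. The members and all lists, from general knowledge of the pathway and of cell types, were chosen with earlier results of these data known. Positions are from GENCODE M21 on GRCm38.

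Alternatives were edgeR 4.0.16 and DESeq2 1.42.0 on recovered reads, limma without trend, pseudocounts of 0.1 and 5, only the genes that averaged 10 or more, quantile normalization, upper quartile scaling, a two-sample test with equal variances for all knockout tumors, other reference genes and each tumor left out. Scripts ran in R 4.3.3 and Python 3.11.15 (pandas 2.3.3, numpy 2.4.6, matplotlib 3.10.9) and were tested on simulated data.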

Additional observations from a re-analysis of the deposited data

Results flagged for a closer look

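Among 33 sets of 5 tumors examined (each member and both *Ifngr2* ratios in each group), 2 had a tumor far from the other 4, and chance gives about 1 in 20. In clone 4, *Ifnar1* was 4803 in tumor 9, below 5338 to 5538 in the other 4 tumors. Also in clone 4, *Jak2* was 3095 in tumor 10, above 2567 to 2661 in the others. Tumor 10 was also the clone 4 tumor with the highest *Ifngr2*.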

How the results depend on the processing

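No paired analysis was possible because tumor numbers run on from 1 to 15 without a link between groups. The 3 calls between knockout and control tumors were made under all 24 alternatives, with 3 to 4 members called. Between 1 and 3 members were called for clone 4 with 1 tumor left out, 1 (*Ifnar2*) without tumor 9, and 4 to 5 for clone 18. Between the clones 1 member, *Stat2*, was called under upper quartile scaling, quantile normalization, edgeR and DESeq2, and 0 to 1 with 1 tumor left out, 1 without control tumor 1 or clone 18 tumor 13. The *Ifngr2* difference relative to flanking genes lost its call with 20 genes on each side (-0.035), the mean of the flanking genes (-0.065) and all other genes of the chromosome (-0.071). With 1 tumor left out, 4 to 10 IFNγ-induced and 2 to 6 type I interferon-induced genes were called, 4 without control tumor 1 and 2 without control tumor 2 respectively, alternatives chosen after seeing the data. Between 8 and 11 other pathway genes were called. Signs turned only in differences that missed the threshold, with 1 tumor left out. Against control these were *Ifngr1* in clone 4 (-0.0019 to 0.071), *Jak1* in clone 18 (-0.031 to 0.044) and *Irf1* in all knockout tumors (-0.088 to 0.156), clone 4 (-0.169 to 0.075) and clone 18 (-0.0075 to 0.236). Between the clones these were *Ifnar2* (-0.011 to 0.060), *Jak2* (-0.051 to 0.017) and *Tyk2* (-0.039 to 0.088). The cause of these changes was not tested. The 9 genes had at least 1272 reads in each tumor, and each group was 1 line.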
